A study of Mus musculus with 9 samples.

Results

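Mural cells are the pericytes and smooth muscle cells that wrap the endothelium of blood vessels, and 110 of the 58645 cells that passed the filters were assigned to them here. A cell was taken when it lay between 500 and 7500 detected genes, gave less than 15% of its UMIs (unique molecular identifiers, 1 per captured transcript) to mitochondrial genes, had no UMI of H2BMc, Krt8, Ptprc or Pecam1, and at least 1 UMI of at least 3 of the 7 markers Rgs5, Notch3, Higd1b, Kcnj8, Abcc9, Myh11 and Cspg4. The values of those 11 genes chose the cells, so they are described and not tested.

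The cells came from 9 primary tumours grown in the mammary fat pads of female BALB/c mice from 168FARN, a mouse mammary tumour line that carries a reporter transcript, H2BMc, and whole tumour suspensions were profiled on a droplet platform that reads the 5′ end of transcripts in single cells. 3 tumours were wild type (WT, libraries X1 to X3), 3 lacked Kmt2c in the injected cells (Kmt2c KO, C1 to C3) and 3 lacked Kmt2d (Kmt2d KO, D1 to D3), both genes encoding histone methyltransferases. Each KO line was a sorted pool transfected with Cas9 and 3 guide RNAs to the first exon. The mural cells were taken as unedited host cells because they held no UMI of H2BMc or Krt8. Their origin was not tested. Library numbers only name libraries, and nothing in the labels pairs them across genotypes.

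Pericytes sit within the vascular basement membrane and are held there by platelet-derived growth factor B, which endothelial cells release and the receptor Pdgfrb receives. They also receive Notch signals from endothelial cells through Notch3. Vascular smooth muscle cells surround larger vessels, contract through smooth muscle actin and myosin, and are set apart from pericytes more by degree than by any single gene. In tumours the mural coat is often sparse and loosely attached.

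Mural cells were found in all 9 libraries. They numbered 14, 17 and 15 in Kmt2c KO libraries C1 to C3, 8, 3 and 9 in Kmt2d KO libraries D1 to D3, and 12, 25 and 7 in WT libraries X1 to X3. They made up 0.188% of kept cells (exact binomial 95% interval 0.154 to 0.226%), with 0.173% in pooled Kmt2c KO, 0.0726% in pooled Kmt2d KO and 0.977% in pooled WT. That share depends on the number of all other cells, with 4504 cells kept in WT against 26580 in Kmt2c KO and 27561 in Kmt2d KO, so the share among vascular cells was taken as well. Of mural and endothelial cells together, mural cells were 31.3% (23.9 to 39.5%) in Kmt2c KO, 13.7% (8.57 to 20.4%) in Kmt2d KO and 22% (16.5 to 28.4%) in WT. The 3 Kmt2c KO libraries lay between 25.0 and 35.7%, the 3 Kmt2d KO libraries between 8.82 and 15.4%, and the WT libraries between 13.0 and 27.8%, overlapping both.

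**Figure D1:**
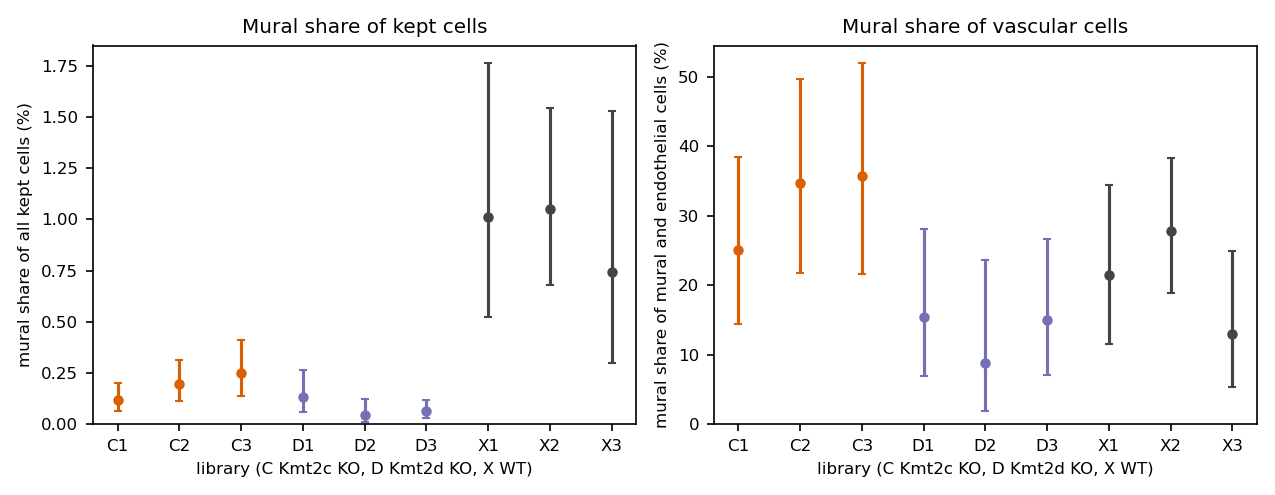
Mural cells by library as a percentage of all kept cells (left) and of mural and endothelial cells together (right), with exact binomial 95% intervals that cover counting error only. The WT libraries stand highest on the left, at 0.745 to 1.05%, whereas on the right they overlap both knockouts and the Kmt2d KO libraries stay at or below 15.4%.

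The mural cells held 776 to 17411 UMIs (median 2557.5), and 356963 UMIs in all. Library D2 stood apart, with 3 cells that carried 27814 of the 83546 UMIs of the Kmt2d KO mural cells, and the Kmt2d KO list counts and the ratios that it moved most are given with and without it. Endothelial cells (383 cells, median 5379 UMIs) and reporter-negative fibroblasts (1287 cells, median 6653 UMIs) served for comparison. They were chosen by the same filters with at least 3 of 7 endothelial or fibroblast markers. No cell barcode was shared between mural cells of different libraries, while 9 of the 110 barcodes also named a kept cell of another library, as did 1889 of 56715 barcodes overall.

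The label was checked against markers of other cell types, leaving out every gene that a rule used to choose mural, endothelial or fibroblast cells. Of the 5 endothelial markers left, Ptprb was at 0 and 4 were detected, and they summed to 762 CPM (UMIs scaled to 1000000 UMIs in all) against 2609 CPM in endothelial cells. Most of the 762 lay in Esam, a junction protein, at 434 CPM, and Flt1, a VEGF receptor, at 260.5 CPM. Cdh5, Kdr and Tie1, which chose the endothelial cells but not the mural cells, were at 0. Emcn and Egfl7, genes of the same kind, were detected in some mural libraries, at up to 5 and 2 UMIs per library. Of the 5 fibroblast markers left 3 were at 0, but their sum, nearly all of it Col1a1, was 2177 CPM in mural cells against 1415 CPM in fibroblasts. The adipocyte list gave 1009 CPM, all of it Fabp4, against 9490 CPM in endothelial cells and 1.98 CPM in fibroblasts, and the Schwann cell list 8 UMIs (22.4 CPM, against 10.3 CPM in fibroblasts). The 4 tumour epithelial markers left gave 1 UMI in all mural cells. They summed to 0.161, 0.563 and 0.835 CPM over all kept cells of Kmt2c KO, Kmt2d KO and WT. At such levels they cannot separate mural from tumour cells. The 14 leukocyte markers left gave 9 UMIs, with 11 of the 14 at 0, while the skeletal muscle and myoepithelial markers gave none.

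At the edge of the rule, 10 cells held exactly 3 of the 7 markers and 14 cells outside it held exactly 2. Pdgfrb, which the rule did not use, was detected in 10 of 10 cells just inside (1934 CPM) and in 6 of 14 just outside (119 CPM). Col3a1, a fibrillar collagen, stood at 1418 CPM inside and 24279 CPM outside. The 14 cells outside were also deeper, with a median of 4408 UMIs against 1364.

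Rgs5, a regulator of G protein signalling and the commonest pericyte marker, was detected in 98.2% of mural cells and ranged from 4764 to 9598 CPM across libraries (median 6014). Notch3 was detected in 91.8% of cells, Abcc9 in 83.6%, Kcnj8 in 67.3%, Higd1b in 66.4%, Myh11 in 65.5% and Cspg4 in 55.5%. Abcc9 and Kcnj8 encode the 2 subunits of the vascular ATP-sensitive potassium channel. For background, 3.13% of endothelial cells and 0.311% of fibroblasts held an Rgs5 UMI, and 15.7% of endothelial cells held Kcnj8, although both classes were deeper.

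Genes that no rule used were compared between classes on UMI sums per library, over libraries with at least 10 cells of a class. 5 mural sums qualified (C1, C2, C3, X1 and X2, none from Kmt2d KO), with 9 endothelial and 9 fibroblast sums, and library was a block in the fit. Of 7009 genes tested, 698 (9.96%) were higher and 1081 (15.4%) lower in mural than in endothelial cells at an adjusted p below 0.05. Against fibroblasts 779 (11.1%) were higher and 953 (13.6%) lower. 335 genes (4.78%) were higher in mural cells than in both classes and 255 (3.64%) were lower than in both. Genes that vary together with the 7 markers from cell to cell are not independent of the choice of cells. A gene low in both other classes could pass the count filter only through the mural sums, where it was high. Counts of list members higher in mural cells are therefore partly set by that filter. All changes are given as log2 fold change ± SE.

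Most tested pericyte genes were higher in mural cells. Of 43 members of a pericyte list outside the rules, 31 had enough counts to be tested. 24 of the 31 were higher in mural cells than in both other classes, beside 4.78% of all genes. Against endothelial cells 25 were higher and none lower, beside 9.96% and 15.4% of all genes. The median log2 fold change was 5.99, beside −0.18 over all genes. Against fibroblasts 26 were higher and 3 lower, beside 11.1% and 13.6%, with a median of 6.27 beside −0.19.

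Pdgfrb, the receptor that recruits pericytes, was detected in 94.5% of mural cells at 683 to 1817 CPM across the 9 libraries (median 1428). Endothelial libraries stayed at or below 38.7 CPM and fibroblast libraries lay between 75.5 and 231 CPM, so neither class overlapped the mural libraries. The difference was 7.21 ± 0.45 against endothelial cells (adjusted p = 2.5e-11) and 3.60 ± 0.37 against fibroblasts (adjusted p = 4.7e-08).

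Cd248, which encodes the tumour pericyte surface protein endosialin, ranged from 901 to 3097 CPM (median 1560), and was higher by 8.16 ± 0.69 than in endothelial cells and by 4.78 ± 0.59 than in fibroblasts. Cox4i2, an alternative subunit of cytochrome c oxidase, ranged from 539 to 1319 CPM (median 1210). D2 was its lowest library, and the other 8 lay at or above 1086 CPM. Cox4i2 was higher by 6.0 ± 0.44 and 11.31 ± 0.55. Ebf1, a transcription factor of mesenchymal cells, was present in all classes and was higher by 3.15 ± 0.27 and 3.3 ± 0.26.

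Some list members were also detected in endothelial cells. Gja4, a gap junction protein of the vessel wall, was higher in mural cells than in both classes, by 2.81 ± 0.33 and 9.38 ± 0.49. Mcam, also known as CD146, ranged from 467 to 1144 CPM in mural and from 417 to 856 CPM in endothelial libraries, which overlapped, and the difference of −0.14 ± 0.22 did not pass the test (adjusted p = 0.73). Against fibroblasts, whose libraries reached at most 1.27 CPM, Mcam was higher by 10.15 ± 0.36.

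**Figure D2:**
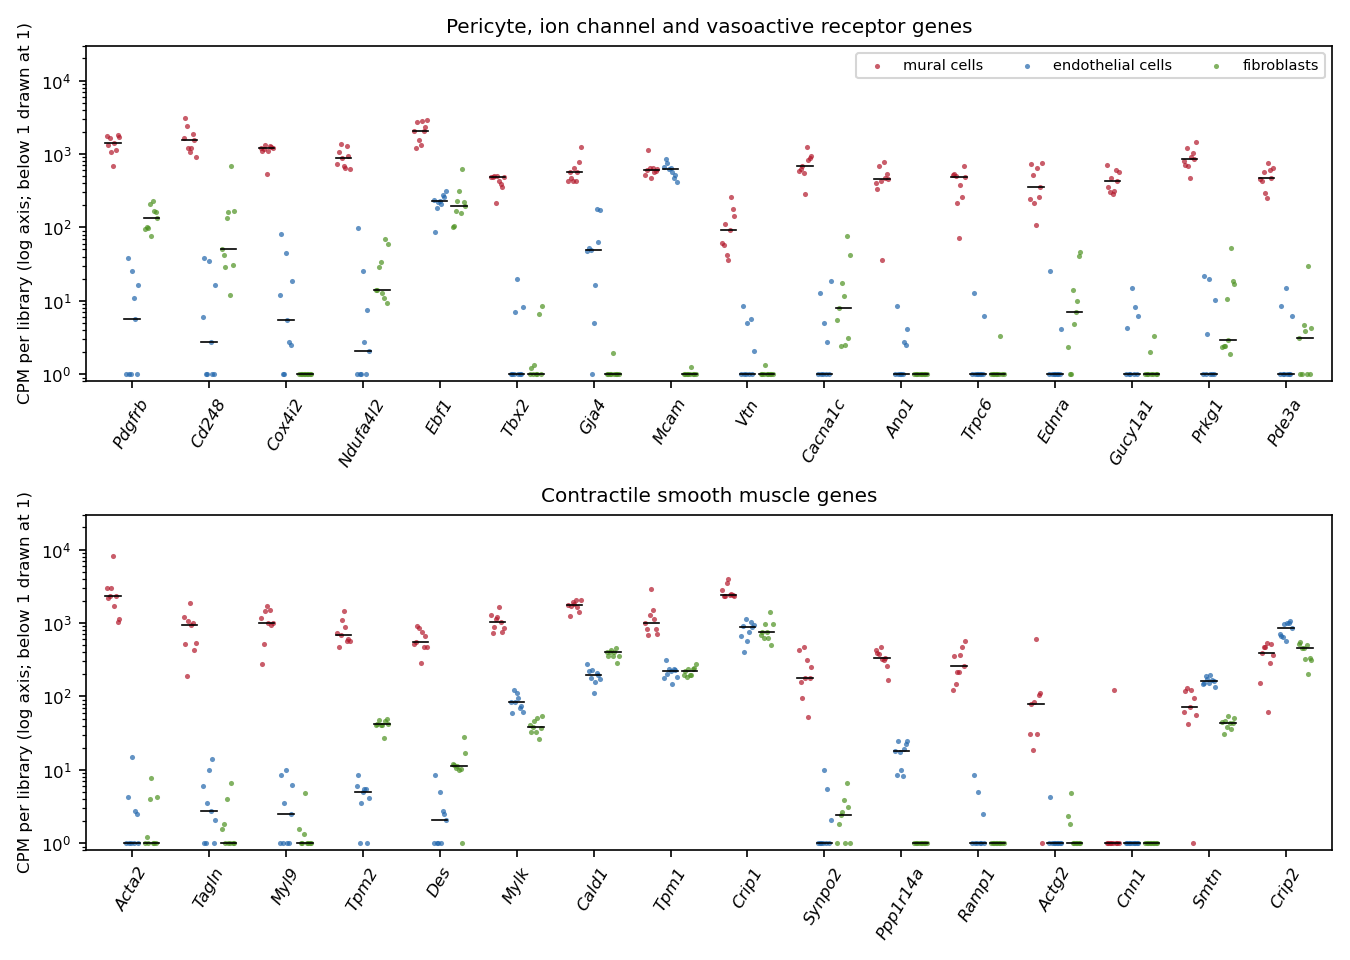
CPM per library (log axis, values below 1 drawn at 1) of pericyte, ion channel and receptor genes (top) and contractile genes (bottom) in mural cells, endothelial cells and fibroblasts. Each point is 1 of 9 libraries and each bar the median. Pdgfrb, Cox4i2 and Acta2 separate the mural libraries from both other classes, Mcam lies at 417 to 1144 CPM in mural and endothelial libraries alike, and Cnn1 is at 0 in 8 of 9 mural libraries.

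Contractile smooth muscle genes were present in the same cells. Of 49 members outside the rules, 29 had enough counts to be tested. 17 of the 29 were higher in mural cells than in both classes, beside 4.78% of all genes. 20 were higher and 4 lower than in endothelial cells (median log2 fold change 1.80), beside 9.96% and 15.4% of all genes. Against fibroblasts 21 were higher and none lower (median 1.86), beside 11.1% and 13.6%. The promoter sequences of 2 of the 17, Acta2 and Myl9, are shown as the thin filament and myosin genes of the contractile machinery whose windows hold a CArG box or a near match to it. The CArG box is the element bound by serum response factor, through which many smooth muscle genes are known to be switched on.

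Acta2 encodes smooth muscle alpha actin, and its window lies at chr19:34255324-34255623 on the minus strand of GRCm38.p6. Myl9 encodes the regulatory light chain of smooth muscle myosin, and its window lies at chr2:156775214-156775513 on the plus strand. Both run 5′ to 3′ from 250 bases before to 50 after the RefSeq start, with a CArG box, or a CArG box with 1 G or C among its 6 inner bases, in capitals.
Acta2: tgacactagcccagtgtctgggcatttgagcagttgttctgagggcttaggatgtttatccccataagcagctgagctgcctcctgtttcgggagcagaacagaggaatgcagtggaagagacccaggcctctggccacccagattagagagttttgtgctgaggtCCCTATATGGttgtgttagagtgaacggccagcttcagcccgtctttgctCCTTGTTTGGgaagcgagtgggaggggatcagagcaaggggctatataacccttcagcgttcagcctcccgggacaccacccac
Myl9: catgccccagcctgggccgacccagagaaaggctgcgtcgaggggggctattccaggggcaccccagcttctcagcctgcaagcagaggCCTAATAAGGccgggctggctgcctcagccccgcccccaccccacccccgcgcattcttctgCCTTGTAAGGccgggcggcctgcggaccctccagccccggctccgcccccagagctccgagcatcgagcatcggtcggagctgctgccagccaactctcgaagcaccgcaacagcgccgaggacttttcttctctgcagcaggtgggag

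The Acta2 window held a box with 1 G or C at −84 to −75 and another at −34 to −25 from the start, and the Myl9 window held a full box at −161 to −152 and one with 1 G or C at −99 to −90. The motif reads the same on both strands. A full box was present in 1.63% of all 32851 RefSeq windows of this length, and in 9 of the 52 windows (17.3%) of the 39 contractile genes that matched the table. With 1 G or C allowed the shares were 9.98% of all windows and 28.9% of contractile ones. Of the 14 matched contractile genes that were higher in mural cells than in both classes, 2 (Myl9 and Vcl) held a full box, and with 1 G or C allowed 4 did (Myl9, Vcl, Acta2 and Crip1). A match is a stretch of letters and not a measured binding site.

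Acta2 was detected in 65.5% of mural cells, and in 45.2% when each cell was thinned to 1000 UMIs (6 shallower cells left out). It ranged from 1029 CPM in X2 to 8161 CPM in D2 (median 2307). Endothelial libraries reached at most 15.1 CPM and fibroblast libraries at most 7.84 CPM. The difference was 10.13 ± 0.38 and 10.62 ± 0.36. Only 1.31% of endothelial cells and 1.01% of fibroblasts held an Acta2 UMI despite their greater depth.

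Myl9 was higher by 8.44 ± 0.45 than in endothelial cells and by 9.82 ± 0.43 than in fibroblasts. It ranged from 273 CPM in C2 to 1726 CPM in D2. Tagln, the actin-binding protein transgelin, was detected in 29.1% of mural cells at 188 to 1870 CPM across libraries, and was higher by 6.85 ± 0.46 and 8.29 ± 0.45. No library of either other class exceeded 13.9 CPM for Tagln.

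Other members of the contractile list were higher than in both classes. Des, the muscle intermediate filament desmin, was higher by 7.75 ± 0.44 and 5.55 ± 0.33, and Tpm2, a tropomyosin, by 6.80 ± 0.31 and 3.67 ± 0.22. Mylk, the kinase that activates smooth muscle myosin, was higher by 3.37 ± 0.20 and 4.53 ± 0.20. Cald1, caldesmon, was higher by 2.74 ± 0.18 and 1.84 ± 0.18, and Crip1, a LIM domain protein, by 1.5 ± 0.20 and 1.61 ± 0.20.

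Several markers of mature smooth muscle had few counts. Cnn1, calponin, gave 4 UMIs, all in 1 cell, and Actg2, the enteric smooth muscle actin, was found in 10.0% of cells. Myocd, the coactivator that works with serum response factor, gave 11 UMIs, and Smtn, smoothelin, was lower than in endothelial cells by 1.09 on the log2 scale (SE 0.33). Crip2 was also lower than in endothelial cells, at −1.39 ± 0.28. Cnn1 and Myocd had fewer than 20 UMIs, the count set for naming a gene, and were picked after their values were seen, as were Pdgfb, Lama5, Nid2, Eln, Cxcl12, Cd74 and Adm below.

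Most tested genes that regulate vessel tone were higher as well. Of 47 ion channel and vasoactive receptor genes outside the rules, 23 had enough counts to be tested. 14 of the 23 were higher in mural cells than in both classes, beside 4.78% of all genes. Against endothelial cells 14 were higher and 2 lower, beside 9.96% and 15.4% of all genes. Against fibroblasts 15 were higher and none lower, beside 11.1% and 13.6%. The medians were 6.09 and 4.73.

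Cacna1c, the pore of the L-type calcium channel, ranged from 288 to 1241 CPM (median 675), against at most 18.7 CPM in endothelial and 75.7 CPM in fibroblast libraries. The groups did not overlap, and the difference was 7.67 ± 0.57 and 5.88 ± 0.45. Ano1, a calcium-activated chloride channel, was higher by 7.17 ± 0.57 and 10.28 ± 0.60. Trpc6, a receptor-operated cation channel, was higher by 7.79 ± 0.63 and 9.18 ± 0.59.

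Constrictor and dilator arms were both represented. Ednra, the endothelin receptor of smooth muscle, was higher by 7.65 ± 0.84 than in endothelial cells and by 5.84 ± 0.71 than in fibroblasts. On the nitric oxide side, Gucy1a1, a subunit of soluble guanylate cyclase, was higher by 7.25 ± 0.59 and 9.52 ± 0.59, and Prkg1, the kinase activated by its product, by 7.30 ± 0.62 and 6.76 ± 0.52. Pde3a, a phosphodiesterase that breaks down cyclic nucleotides, was higher by 7.49 ± 0.74 and 7.28 ± 0.64. Agtr1a, the angiotensin II receptor, was detected in 40.0% of mural cells at 199 CPM, against 0.378 CPM in endothelial cells, but had too few counts to be tested.

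Genes of the Notch pathway were split between mural and endothelial cells. Of 14 tested Notch genes outside the rules, 3 were higher and 6 lower in mural than in endothelial cells, beside 9.96% and 15.4% of all genes. Against fibroblasts 5 were higher and 2 lower, beside 11.1% and 13.6%. Heyl, a Notch target, ranged from 71.9 to 273 CPM in mural libraries, and reached at most 4.30 CPM in endothelial ones. Heyl was higher by 7.47 ± 0.90 and 8.54 ± 0.80. The 3 Kmt2c KO libraries were its highest, at 206 to 273 CPM. Of 7 Notch genes with at least 20 UMIs, 1 was at least 2-fold higher and 1 lower in pooled Kmt2c KO than in WT, beside 7.97% and 7.4% of all genes. 1 was higher in every Kmt2c KO than in every WT library, beside 7.6%. Jag1, a ligand, was higher by 2.61 ± 0.49 and 2.54 ± 0.47. Nrarp, a feedback target, was lower than in endothelial cells (−1.62 ± 0.32) and higher than in fibroblasts (8.55 ± 0.63).

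Notch4, Dll4, Jag2 and Mfng, which belong to the endothelial side of the pathway, had no UMI in any mural cell and were named after their values were seen. At a floor of 3 counts over all mural cells, 8.40 CPM, Notch4 was at least 43.6-fold higher and Dll4 at least 40.0-fold higher in endothelial than in mural cells. For Jag2 and Mfng the bounds were 12.1-fold and 14.7-fold.

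Pdgfb, the ligand of Pdgfrb, gave 8 UMIs in mural cells and was lower than in endothelial cells by 4.07 on the log2 scale (SE 0.46). Pdgfa ranged from 93.1 to 656 CPM in mural libraries, above every endothelial (at most 47.3 CPM) and every fibroblast library (at most 53.3 CPM), and was higher by 4.76 ± 0.45 and 2.79 ± 0.37. Of 24 tested angiopoietin, VEGF and TGF-beta genes, 3 were higher and 10 lower than in endothelial cells, beside 9.96% and 15.4% of all genes. Against fibroblasts 7 were higher and 8 lower, beside 11.1% and 13.6%. None was higher than in both, beside 4.78% of all genes.

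Angpt2 and Flt1 lay between the 2 other classes. Flt1 was lower in mural than in endothelial cells (−1.83 ± 0.38) and higher than in fibroblasts (6.26 ± 0.51). It was found in 36.4% of mural cells and 80.9% of endothelial cells. Angpt2, an angiopoietin made at remodelling vessels, changed by −1.88 ± 0.37 and 2.84 ± 0.50, and Eng, a TGF-beta co-receptor, by −1.54 ± 0.24 and 2.86 ± 0.27. Fabp4, a fatty acid binding protein that endothelial cells expressed at 9490 CPM, stood at 1009 CPM in mural cells and 1.87 CPM in fibroblasts. Cdh5, Kdr and Tie1, at 1320, 475 and 435 CPM in the same endothelial cells, were at 0 in mural cells, whereas Emcn and Egfl7 were detected in some mural libraries.

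Basement membrane genes were compared with both neighbours of the mural cell. Of 31 tested members, 11 were higher and 7 lower than in endothelial cells, beside 9.96% and 15.4% of all genes, with a median of −0.04. Against fibroblasts 18 were higher and 4 lower, beside 11.1% and 13.6%, with a median of 1.97.

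Col4a1, a chain of the main basement membrane collagen, was detected in all mural cells at 2967 to 5740 CPM (median 4892). Endothelial libraries overlapped it at 4230 to 6606 CPM and fibroblast libraries did not, at 583 to 1034 CPM. The difference was −0.31 ± 0.17 against endothelial cells (adjusted p = 0.21) and 2.47 ± 0.17 against fibroblasts. Sparc, a matrix-binding glycoprotein, differed by −0.36 ± 0.28 (adjusted p = 0.41) and 1.89 ± 0.28, and its mural libraries overlapped those of both classes. Col18a1, the precursor of endostatin, was higher than in both classes, by 1.11 ± 0.20 and 3.15 ± 0.21.

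The laminins differed by chain. Lama2 ranged from 136 to 434 CPM in mural libraries and reached at most 10.4 CPM in endothelial libraries, and was higher by 6.77 ± 0.62 and 2.82 ± 0.44. Lama5, with 6 UMIs in mural cells, was lower than in endothelial cells (−3.38 ± 0.54) and fibroblasts (−2.97 ± 0.56). Hspg2, perlecan, ranged from 108 to 383 CPM and did not overlap the endothelial libraries at 787 to 1552 CPM (−1.96 ± 0.29). Nid2, a nidogen, with 10 UMIs, was also lower than in endothelial cells (−3.56 ± 0.65). Mgp, an inhibitor of calcification, was higher by 8.64 ± 0.67 and 6.83 ± 0.57 but ranged from 31.0 CPM in D3 to 2373 CPM in D2, so that its lowest mural library overlapped both other classes.

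Interstitial matrix genes set mural cells apart from endothelium and, in part, from fibroblasts. Of 25 tested members, 19 were higher and none lower than in endothelial cells (median 6.22), beside 9.96% and 15.4% of all genes. Against fibroblasts 10 were higher and 6 lower, beside 11.1% and 13.6%. The 10 were higher than in both classes, beside 4.78% of all genes.

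Col6a3, a chain of microfibrillar collagen VI, ranged from 1323 to 2795 CPM in mural libraries, above all endothelial (at most 77.4 CPM) and fibroblast libraries (165 to 741 CPM), and was higher by 7.24 ± 0.56 and 2.58 ± 0.47. Col1a1 ranged from 310 CPM in X3 to 5573 CPM in D2. Fibroblast libraries ranged more widely still, from 137 to 9846 CPM, and overlapped it, while endothelial libraries stayed at or below 21.5 CPM. Col1a1 was higher than in endothelial cells by 10.71 ± 1.04 and than in fibroblasts by 2.18 ± 0.79 (adjusted p = 0.047). The latter call was lost in 10 of 19 alternatives, among them DESeq2 (1.31) and leaving out any of C1, C2, C3, D1, D2, D3 or X2 (1.45 to 2.42), and in a further one, without the library block, the value turned to −0.0857. Col3a1 did not pass against fibroblasts (0.62 ± 0.64, adjusted p = 0.55), passed without X1 (1.45) and turned to −0.993 without the library block.

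Some matrix genes were lower than in fibroblasts. Fn1, fibronectin, lay at 643 to 993 CPM in mural and 4762 to 7337 CPM in fibroblast libraries, which did not overlap, a difference of −3.46 ± 0.50. Timp2, an inhibitor of metalloproteinases, differed by −2.91 ± 0.33. Eln, elastin, gave 11 UMIs and differed by −3.64 ± 0.53. Bgn, the proteoglycan biglycan, was higher than in endothelial cells by 6.35 ± 0.36 and did not pass against fibroblasts (−0.17 ± 0.29, adjusted p = 0.72).

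**Figure D3:**
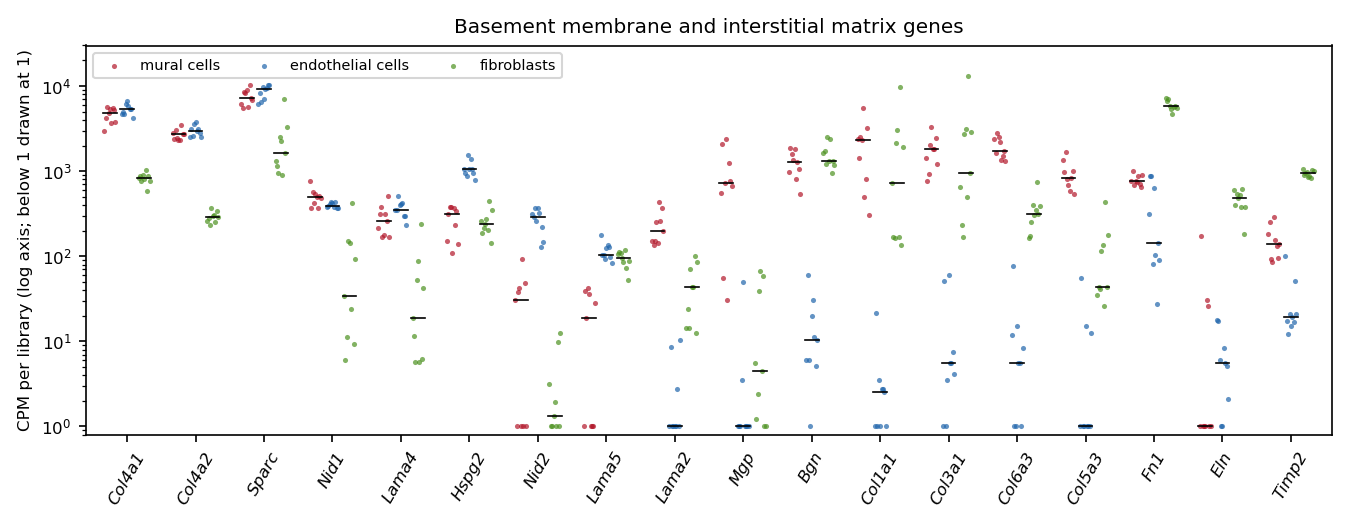
CPM per library (log axis, values below 1 drawn at 1) of basement membrane and interstitial matrix genes in the 3 classes, with 1 point per library and bars at the median. Col4a1 overlaps between mural and endothelial cells, Col6a3 is highest in mural cells at 1323 to 2795 CPM, and Fn1 and Timp2 are highest in fibroblasts.

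Chemokine and inflammatory genes were mostly lower than in fibroblasts. Of 17 tested such genes, 5 were higher and 2 lower than in endothelial cells, beside 9.96% and 15.4% of all genes. Against fibroblasts 4 were higher and 12 lower, beside 11.1% and 13.6%. Il34, a ligand of the macrophage receptor Csf1r, ranged from 71.9 to 521 CPM and was higher by 5.96 ± 0.44 and 2.4 ± 0.31. Serping1, the C1 esterase inhibitor, was detected in 90.9% of cells and was higher by 2.58 ± 0.75 and 2.99 ± 0.87. Both Serping1 calls were lost without X2 (2.20 and 2.45), and that against fibroblasts also without C1 (2.78). Cxcl12, with 7 UMIs, was lower than in both classes (−3.15 ± 0.61 and −3.73 ± 0.58), as was Nfkbia, the inhibitor of NF-kB (−1.58 ± 0.24 and −1.16 ± 0.24).

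Of 17 tested hypoxia and glycolysis genes, 3 were higher and 5 lower than in endothelial cells, beside 9.96% and 15.4% of all genes, and 2 were higher and 5 lower than in fibroblasts, beside 11.1% and 13.6%. Adm, the vasodilator peptide adrenomedullin, had no UMI in mural cells and was at least 25.9-fold higher in endothelial cells and at least 8.45-fold higher in fibroblasts. Of 15 tested cell cycle genes, none was higher and 1 was lower than in endothelial cells, and 2 were higher and none lower than in fibroblasts, beside the same shares of all genes. Mki67, a marker of cycling cells, was detected in 12.7% of mural, 17.2% of endothelial and 5.05% of fibroblast cells, at 3.85% of mural cells after thinning. Both other classes were deeper, so these shares do not rank the classes. In the fit, which allows for depth, Mki67 passed against neither class (−0.41 ± 0.70 and 1.40 ± 0.78).

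Outside the lists, 259 genes were higher than in both classes with at least 20 UMIs in at least 3 mural libraries. Ranked by the smaller of their 2 fold changes, the first 10 were Adap2, Serpina1b, Daam2, Lin7a, Ctnna3, Olfr558, Hopx, Rem1, Pakap and Vstm4. Both calls of Adap2 were lost with DESeq2 (7.62 and 10.07). Daam2, a formin that builds actin filaments, ranged from 128 to 489 CPM and was higher by 7.94 ± 0.79 and 8.60 ± 0.71. Hopx, a homeodomain-only protein, was higher by 7.30 ± 0.73 and 7.45 ± 0.65, and Rem1, a small GTPase, by 6.93 ± 0.76 and 7.50 ± 0.69. Olfr558, an olfactory receptor gene, was detected in all 9 mural libraries at 42.5 to 288 CPM, with 2 UMIs in endothelial cells and none in fibroblasts. Ctnna3 was in 8 of 9 libraries but only 15.5% of cells.

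Pericyte and contractile programmes varied from cell to cell. Leaving out the rule genes, the pericyte list took 61.4 to 309 UMIs per 10000 of a cell (median 166) and the contractile list 55.0 to 554 (median 128). Across the 110 cells the 2 sums ran against each other, with Pearson r = −0.48 and Spearman rho = −0.39, and r = −0.44 once library means were removed. In 104 cells thinned to 1000 UMIs r was −0.40. These values describe cells that share libraries, and shares of a fixed total tend to oppose each other.

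**Figure D4:**
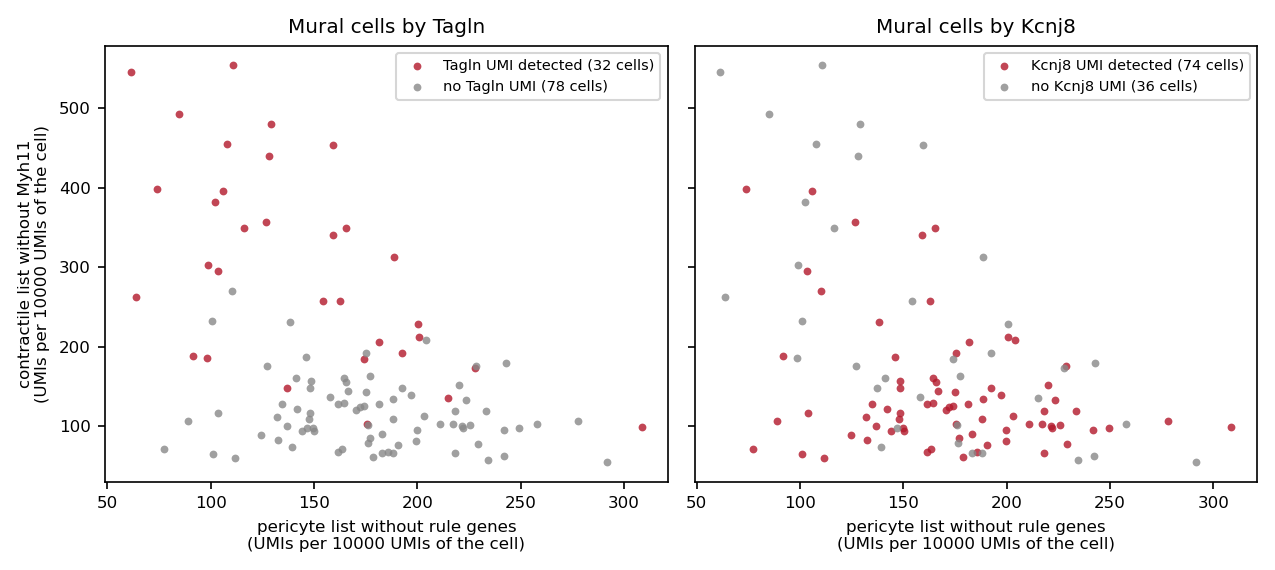
Summed contractile list against summed pericyte list in each of the 110 mural cells (UMIs per 10000 UMIs of the cell), coloured by detection of Tagln (left) and Kcnj8 (right). Of the 21 cells above 250 on the contractile axis, 20 held Tagln, which is itself 1 of the genes summed on that axis.

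Myh11, the smooth muscle myosin heavy chain, was detected in 72 of the 110 cells. 3 libraries (C2, X1 and X2) held at least 5 cells with and 5 without it, and sums were compared within them. Myh11 helped to choose the cells, and a cell without it needed 3 of the other 6 markers where a cell with it needed 2, so the groups were chosen differently and the comparison is given only as a description. Of 344 genes tested outside the rules, 0 were higher and 0 lower (0% in each direction) at an adjusted p below 0.05 with edgeR, with 26 at an unadjusted p below 0.05. DESeq2 also called 0, with 8 at an unadjusted p below 0.05. Tagln differed by 3.87 ± 0.92, Acta2 by 2.4 ± 0.68, Myl9 by 1.80 ± 0.36 and Crip1 by 1.45 ± 0.27, with the higher value in Myh11-positive cells. Fabp4 (1.73 ± 0.61) and Col1a1 (1.66 ± 0.47), from the adipocyte and fibroblast marker lists, lay the same way. Others lay the opposite way, among them Ano1 (−1.30), Sparcl1, a matrix glycoprotein (−0.80), and Col4a1 (−0.67). The count of calls was 6 without C2 and 5 without X1, all higher in Myh11-positive cells. Each of those fits rested on 2 libraries and 4 sums, below the 3 libraries set for a test, so nothing is concluded from them. When at least 2 Myh11 UMIs were required, 3 genes were higher and 2 lower.

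Over all libraries, Tagln was detected in 41.7% of the 72 Myh11-positive and 5.26% of the 38 Myh11-negative cells, and in 45.2% and 6.45% after thinning, when 42 cells held Myh11 and 62 did not. Acta2 was detected in 72.2% and 52.6%, and in 64.3% and 32.3% after thinning. The other rule genes are not compared in this split.

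The cells were also split by detection of Tagln, a choice made after the values were seen and therefore only described. 32 cells held Tagln and were spread over all 9 libraries, with 1 to 8 per library, and 23 of 104 cells held it after thinning. Of the Tagln-positive cells 93.8% also held Myh11, against 53.8% of the others, so the rule bears unequally on the remaining rule genes here as well. Kcnj8 was detected in 37.5% of Tagln-positive and 79.5% of Tagln-negative cells (13.0% and 61.7% after thinning). Cygb, cytoglobin, a globin of pericytes and stellate cells, was detected in 68.8% and 94.9% (26.1% and 76.5%). Vstm4 was detected in 28.1% and 59.0% (4.35% and 28.4%).

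In the opposite direction, Acta2 was detected in 90.6% of Tagln-positive and 55.1% of Tagln-negative cells (87.0% and 33.3% after thinning). Actg2 was detected in 31.3% and 1.28%, Hspb1, a small heat shock protein, in 46.9% and 6.41% (26.1% and 4.94%), and Mustn1, a musculoskeletal nuclear protein, in 40.6% and 3.85% (17.4% and 2.47%). Fabp4 was detected in 68.8% and 43.6%. Rgs5 was detected in 100% and 97.4%. Detection of the other rule genes, which the rule sets in part, went both ways and is only described. Notch3 was detected in 100% and 88.5% (78.3% and 56.8%) and Cspg4 in 65.6% and 51.3% (39.1% and 29.6%). Abcc9 was detected in 68.8% and 89.7% (39.1% and 71.6%) and Higd1b in 50.0% and 73.1% (8.70% and 45.7%).

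Mural cells were too few to compare genotypes by a test, so UMIs were pooled per genotype (137339 in Kmt2c KO, 83546 in Kmt2d KO and 136078 in WT) and ratios are given with 95% intervals for counting error only. Of 3525 genes with at least 20 UMIs, 281 (7.97%) were at least 2-fold higher and 261 (7.4%) at least 2-fold lower in Kmt2c KO than in WT mural cells, and 268 (7.6%) were higher in every Kmt2c KO library than in every WT library.

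Interferon-induced and MHC class I genes were higher in the mural cells of Kmt2c KO tumours. Of the 45 genes of the interferon and MHC list, 33 had at least 20 UMIs over all mural cells, and only these were counted. Of the 33, 28 were at least 2-fold higher in Kmt2c KO and none at least 2-fold lower. 28 were higher in every Kmt2c KO library than in every WT library. Some members reached 20 UMIs mainly through Kmt2c KO cells, so the filter favours this direction. Cxcl10, for instance, had 15, 8 and 6 UMIs in C1 to C3 and 0, 6 and 0 in X1 to X3. The median log2 ratio, taken after adding 10 CPM to each value, was 1.88, against −0.01 over all genes. Some of these genes were known from these data to be raised in other cells of Kmt2c KO tumours, so their direction here is not independent evidence.

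Ly6a, a surface antigen induced by interferon, stood at 2233, 3740 and 2982 CPM in C1 to C3 and at 391, 145 and 113 CPM in X1 to X3. The groups did not overlap, and the pooled ratio was 15 (10.2 to 22.9). Cxcl9, a T cell chemokine, stood at 1071, 1480 and 1444 CPM in C1 to C3 and at 182, 64.3 and 0 CPM in X1 to X3, a ratio of 16.9 (9.25 to 34.5). Bst2, tetherin, was 4.40-fold (3.02 to 6.59) higher. H2-K1, an MHC class I heavy chain, was 2.81-fold (2.43 to 3.26) and B2m, its light chain, 2.08-fold (1.78 to 2.44) higher.

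Ifitm1, Ifitm2 and Ifi27 were the exceptions in both counts. Ifitm1 also differed between classes. Its mural libraries ranged from 93.1 to 994 CPM, above every endothelial (at most 81.7 CPM) and fibroblast library (at most 15.1 CPM), and it was higher by 6.14 ± 0.57 and 7.10 ± 0.55. Pooled Ifitm1 stood at 837 CPM in Kmt2c KO, 192 CPM in Kmt2d KO and 728 CPM in WT mural cells.

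Summed over 45 interferon and MHC genes, mural libraries held 348 to 481 UMIs per 10000 in Kmt2c KO, 129 to 242 in Kmt2d KO and 132 to 178 in WT. The Kmt2c KO libraries did not overlap the others. Pooled endothelial cells stood at 475, 275 and 190 in the same order and fibroblasts at 423, 240 and 142. In Kmt2d KO, D2 was the highest library in all 3 classes, at 242 in mural cells, 500 in endothelial cells and 343 in fibroblasts. Leukocyte markers outside the rule summed to 29.1, 12.0 and 29.4 CPM in mural cells of Kmt2c KO, Kmt2d KO and WT, against 315, 176 and 488 CPM over all kept cells.

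Levels of the list were also compared between classes. Cd74, the class II invariant chain, gave 4 UMIs in all mural cells and was lower than in endothelial cells by 6.58 on the log2 scale (SE 0.86). Of 44 tested genes of the list, 2 were higher and 15 lower in mural than in endothelial cells, beside 9.96% and 15.4% of all genes. Against fibroblasts 9 were higher and 6 lower, beside 11.1% and 13.6%, where 6 of 44 is the share found over all genes. Cxcl9 was higher than in fibroblasts (4.69 ± 0.44), and H2-K1 was lower (−0.78 ± 0.19), a call that was lost without the library block (−0.70).

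**Figure D5:**
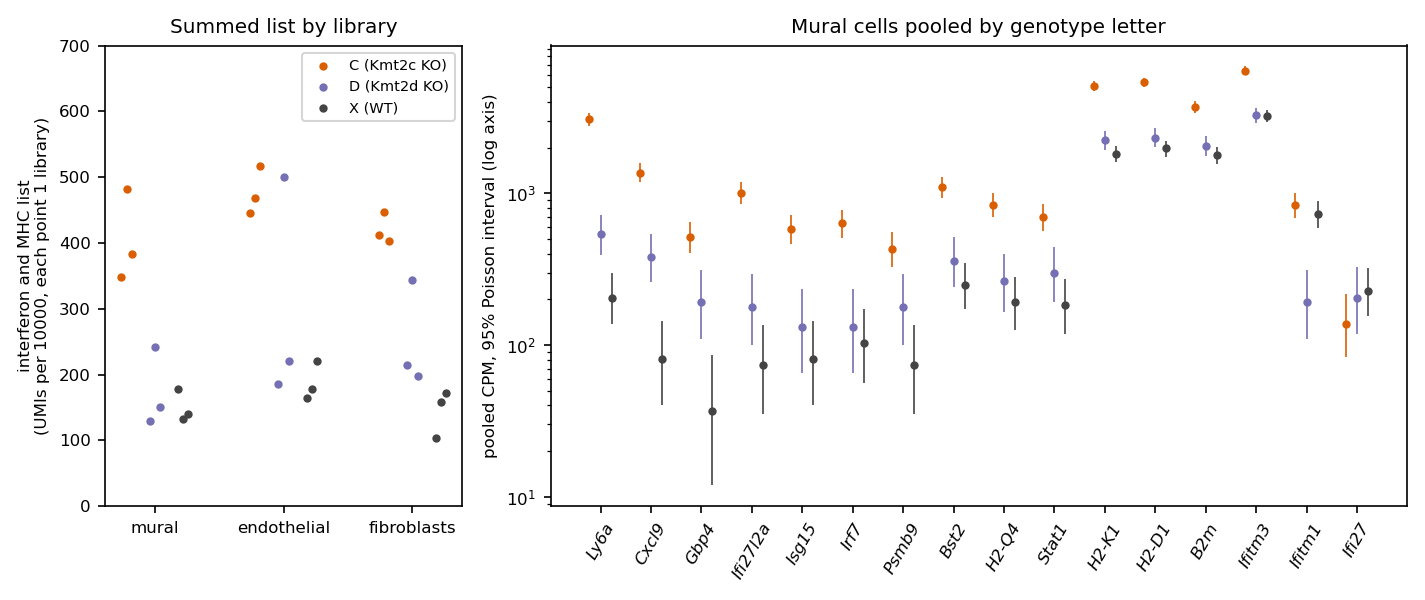
Left, summed interferon and MHC list per library in mural cells, endothelial cells and fibroblasts (UMIs per 10000). Right, pooled CPM (log axis) of single genes in mural cells by genotype, with exact Poisson 95% intervals for counting error only. Kmt2c KO lies far above WT for Ly6a, Cxcl9 and Bst2, whereas Ifitm1 is at 837 and 728 CPM and Ifi27 is lower in Kmt2c KO than in WT.

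In Kmt2d KO, 275 of the 3525 genes (7.8%) were at least 2-fold higher than in WT and 320 (9.08%) at least 2-fold lower, and 156 (4.43%) were higher in every Kmt2d KO than in every WT library. Without D2 the counts were 318 (9.02%), 484 (13.7%) and 344 (9.76%). Of the 33 interferon and MHC genes, 11 were at least 2-fold higher and 2 lower, and 0 were higher in every library. Without D2, 1 was at least 2-fold higher, 7 were lower and 0 were higher in every library. The ratio of Gbp2, an interferon-induced GTPase, moved from 7.17 with D2 to 0.98 without it, that of Cxcl9 from 4.74 to 1.55, that of Ly6a from 2.62 to 1.13 and that of Bst2 from 1.44 to 0.29.

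Of 31 contractile genes outside the rule, 10 were at least 2-fold higher in pooled Kmt2d KO than in WT mural cells and none was 2-fold lower. 5 were higher in every Kmt2d KO than in every WT library. The shares of all genes were 7.8%, 9.08% and 4.43%. Without D2 the counts were 6, 0 and 7, beside 9.02%, 13.7% and 9.76% of all genes. With all libraries the 5 were Mylk, Tpm1, Tpm2, Aoc3 and Ppp1r12b. Acta2 stood at 2977, 8161 and 1707 CPM in D1 to D3 and at 2346, 1029 and 1126 CPM in X1 to X3. The groups overlapped, and the pooled ratio of 2.96 (2.47 to 3.54) fell to 1.57 without D2. Few cells held the Acta2 UMIs. Single cells gave 35 and 20 of 70 in D1, 134 and 81 of 227 in D2, and 50 of 55 in D3. These cells took 295 to 554 contractile UMIs per 10000, against a median of 128 over all mural cells. WT was uneven as well, with a single cell at 33 of 40 in X3. The interval treats UMIs of 1 cell as independent and does not cover this. Tpm1, a tropomyosin, stood at 1276, 2876 and 1490 CPM against 1121, 836 and 704 CPM, a ratio of 2.14 (1.68 to 2.74), or 1.59 without D2. In Kmt2c KO 1 of the 31 was at least 2-fold higher and 1 lower, beside 7.97% and 7.4% of all genes.

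Of 30 pericyte genes outside the rule, 2 were at least 2-fold higher and 2 lower in Kmt2c KO, beside 7.97% and 7.4% of all genes. In Kmt2d KO none was higher and 3 were lower, beside 7.8% and 9.08% of all genes. Without D2 the counts were 1 and 3, beside 9.02% and 13.7%. The same median log2 ratio to WT was −0.06 in Kmt2c KO and −0.35 in Kmt2d KO, against −0.01 and −0.03 over all genes, and that of the contractile genes 0.03 and 0.59. Pdgfrb had ratios to WT of 0.98 (0.81 to 1.19) in Kmt2c KO and 0.68 (0.52 to 0.87) in Kmt2d KO, or 0.80 without D2. The makeup of the 20 Kmt2d KO cells, in pericytes and smooth muscle cells, and a change within either cannot be told apart.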

How the data were processed

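Per the labels, the authors ran Cell Ranger 7.0.1 against mm10 on 5′ libraries and deposited 1 aggregated matrix of whole-number UMI counts per gene and barcode (89147 barcodes, 585680611 UMIs, 21529691 to 125617312 per library). Libraries were read from barcode suffixes and genotypes from the letters C, D and X of the deposited aggregation table. X was read as WT because it is the remaining group.

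Cells were kept and classed as stated with the report, and no doublet caller was run. Counts were summed per library and class and tested with edgeR 4.0.16 (glmQLFit, glmQLFTest, filterByExpr, TMM, Benjamini-Hochberg adjustment over all genes tested) in R 4.3.3. Library was the block, because classes of 1 library come from the same tumour. Deviations of same-library mural and endothelial sums correlated at r = 0.04 to 0.07, mural and fibroblast sums at 0.01 to 0.15. The SE was taken as log2 fold change divided by √F. The p-values measure only the spread between these libraries. On simulated counts the test recovered 49% of 4-fold and 4% of 2-fold changes against endothelial cells, and 53% and 7% against fibroblasts. Of 6716 genes there, 100 were changed 2-fold and 100 changed 4-fold, with a fixed spread and otherwise equal means. The real fits called 25.4% and 24.7% of genes, and fewer changed genes make the adjustment stricter. These rates are therefore not the recovery in the real fits. In the Myh11 split the test recovered 67% and 15% and also called 3.8% of unchanged genes. Of 378 genes there, 100 were changed 2-fold and 100 changed 4-fold, which makes the adjustment more lenient than with few changed genes. The rates of the split may therefore overstate recovery in the real one. DESeq2 1.42.0 was an alternative. CPM are UMIs scaled to 1000000 UMIs of the pooled cells. Ratios of Kmt2d KO without D2 were added after the data were seen. Intervals cover counting error only.

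Values are given for list members with at least 20 UMIs over all mural cells, and, outside the lists, for the first 10 genes higher than in both classes, ranked by the smaller of the 2 fold changes. The members, markers and lists were chosen with earlier results of these data known. Promoter windows are from RefSeq on GRCm38.p6. 1 list member is not reported here.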

Additional observations from a re-analysis of the deposited data

How the results depend on the processing

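The number of mural cells was 100 to 124 over 6 other rules. After thinning to 1000 UMIs the share of mural cells with an Acta2 UMI moved from 65.5 to 45.2% and with a Myh11 UMI from 65.5 to 40.4%; leaving out a library gave 61.3 to 72.9% and 63.5 to 67.7%. Genes called against endothelial cells and fibroblasts (1779 and 1732) were 1877 and 1794 without the library block, 1645 and 1664 with DESeq2, and 1467 to 1769 and 1436 to 1737 when a library was left out. They fell to 718 and 379 with at least 20 cells per class, which leaves 1 mural sum, X2, assumed to vary like the other classes. DESeq2 moved the median log2 fold change of all genes against endothelial cells from −0.18 to −0.08. The Myh11 split gave 0 calls without the block and 6 with no filter on low counts, 5 with at least 2 Myh11 UMIs against none, 6 without C2, 5 without X1 and 0 without X2. Acta2, Crip1 and Col1a1 were called in each of the 4 settings that gave calls. The settings without C2 or X1 rested on 2 libraries each, fewer than was set for a test. Col4a1 passed against endothelial cells with at least 5 cells per class (−0.43) and Sparc without the filter (−0.54), and Adap2 was lost with DESeq2. Without the block the difference from fibroblasts was −0.0857 for Col1a1 and −0.993 for Col3a1, and leaving out a library gave Mcam −0.312 to 0.0268 against endothelial cells, the highest without C2; the causes were not tested. With 110 cells, values of list members under 20 UMIs rest on few molecules.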
